A study of Saccharomyces cerevisiae with 5 samples.

Results

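The late-inefficient replication origin ARS313 was analysed over its nucleosome-free region (NFR) and the flank on its + side, that is, the side that faces the T-rich strand of the ARS consensus sequence (ACS). In the deposited tables this flank lies toward lower columns, so columns 1 to 630 of the 1036 columns of the ARS313 chromatin ring were taken, counted from the first base of the table. They hold 21 of the 152 complete 30-bp windows of the 4 origin rings in these data. Rings were cut out of the chromosome in G1-arrested yeast by R recombinase (induced with 2% galactose), purified through LexA-TAP and treated with 3 methyltransferases, EcoGII for adenines, M.CviPI for cytosines in GpC and M.SssI for cytosines in CpG, which act mainly on bases not covered by protein. Nanopore sequencing then gave a 0 or 1 for each base of each molecule.

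There were 5 libraries, 1 of wildtype (strain Y0094), 2 of an isw2Δ strain (Y0107, isw2delta::ura3) and 2 of an ies6Δ strain (Y0128, ies6delta::his). All 3 strains were MATa and had bar1::kanMX4, met15delta0, his3delta1, leu2delta0 and ura3delta0, the ARS313 locus flanked by recombination sites with LexA sites, and on chromosome I a LEU2-marked insertion with LexA-TAP under pTEF2 and the recombinase under pGAL1-10. In each library cells of 4 origin strains had been pooled, and a nucleosomal array and a naked plasmid were added as spike-ins before methylation. The wildtype library held 985 ARS313 reads (493 forward and 492 reverse) and each mutant library 1560 (780 and 780). Every column was called on a single strand, 287 of the described columns on forward and 343 on reverse reads. Forward and reverse means were therefore added per column and scaled to the array mean of the library, so that a normalized methylation level of 1 is the level of the array.

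The NFR of an origin is a stretch without a stable nucleosome over the ACS, where the origin recognition complex (ORC) binds and from which the flanking nucleosomes are arrayed. The ISW2 remodeler, with Isw2 as its catalytic subunit, slides nucleosomes and is known for moving them over the borders of nucleosome-free regions. INO80, of which Ies6 is a subunit, positions and spaces nucleosomes next to such regions. Each deletion was thus compared with wildtype on the same DNA sequence.

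The tables hold no base letters, but a column called on forward reads is an A or C of the ring and a column called on reverse reads a G or T. Oligonucleotides of the study were placed by this pattern, and 6 stretches of 20 bases or more fell between the ring start and the NFR with a match at every base. They are printed in ring orientation, outermost first, with capitals at bases whose level, averaged over the 5 libraries, was 2 or more. The best other placement matched at most 95.2% of the bases. The first is in the low stretch outside the linker, the next pair abuts inside the linker, the following pair abuts between the middle and inner stretches, and the last lies just outside the + side edge of the NFR.
Outer stretch, columns 153 to 174: agggagaagataaaggacgacT
Linker, columns 185 to 204: ATaTcgTaaaatttgTgAgc
Linker, columns 205 to 228: ttttgtatgAAaaacTcaTgaaTc
Middle stretch, columns 340 to 364: ttgatactacaggagctggagatac
Inner stretch, columns 365 to 385: ttTcctgggcggtttggttac
Inner stretch, columns 455 to 475: TcAAAgaaaaggtgctgctgA
In these stretches the averaged level differed with both position and base. The 2 linker stretches held 6 and 5 capitals and mean levels of 1.86 and 1.53. The 2 stretches around column 364 held 0 and 1, with mean levels of 0.840 and 0.730. Every capital was an A or T, in an average over 5 libraries of which 4 were mutant. In wildtype alone, over the placed stretches on both sides of the NFR, bases in CpG or GpC had a higher level (1.36) than A or T bases (1.11). On the + side this held in the outer, linker and middle stretches but not in the inner one (0.922 against 1.20). The CpG or GpC bases there were few, 2 to 7 per region. No stretch fell inside the NFR itself, and its sequence was not used here.

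The placed bases also show that the wildtype library differed from the mutant libraries in which bases were methylated, and this touches every comparison with wildtype below. In the naked plasmid, where 9 oligonucleotides of ARS305 were placed in the same way, 37.6% of calls at 121 A or T bases were methylated in wildtype, against 61.8 and 63.9% in the isw2Δ and 60.8 and 61.3% in the ies6Δ libraries. At 49 C or G bases in CpG or GpC it was 27.8% in wildtype and 4.39 to 7.68% in the mutant libraries. So the wildtype library was low at adenines and high at cytosines on protein-free DNA. Its naked plasmid had 1000 forward but only 52 reverse reads, against 780 and 780 in each mutant library. Values at reverse columns, and scales by the naked plasmid, rest on these few reads in wildtype. At the placed stretches of the ARS313 ring, on both sides of the NFR, 143 A or T bases had levels of 1.11 in wildtype and 1.51 to 1.76 in the mutant libraries, and 29 C or G bases in CpG or GpC had 1.36 against 0.464 to 0.718. On average over the 5 libraries, 87.8% of the NFR columns were methylated in at least 5% of molecules. So were 85.0% of the linker columns and 60.8% of the columns of the inner stretch. Of the placed ring bases at or above this averaged level 139 of 169 were A or T. The part of this difference in the results was not tested in the NFR, for which no base letters were placed, and values on other scales are given beside the results.

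**Figure D1:**
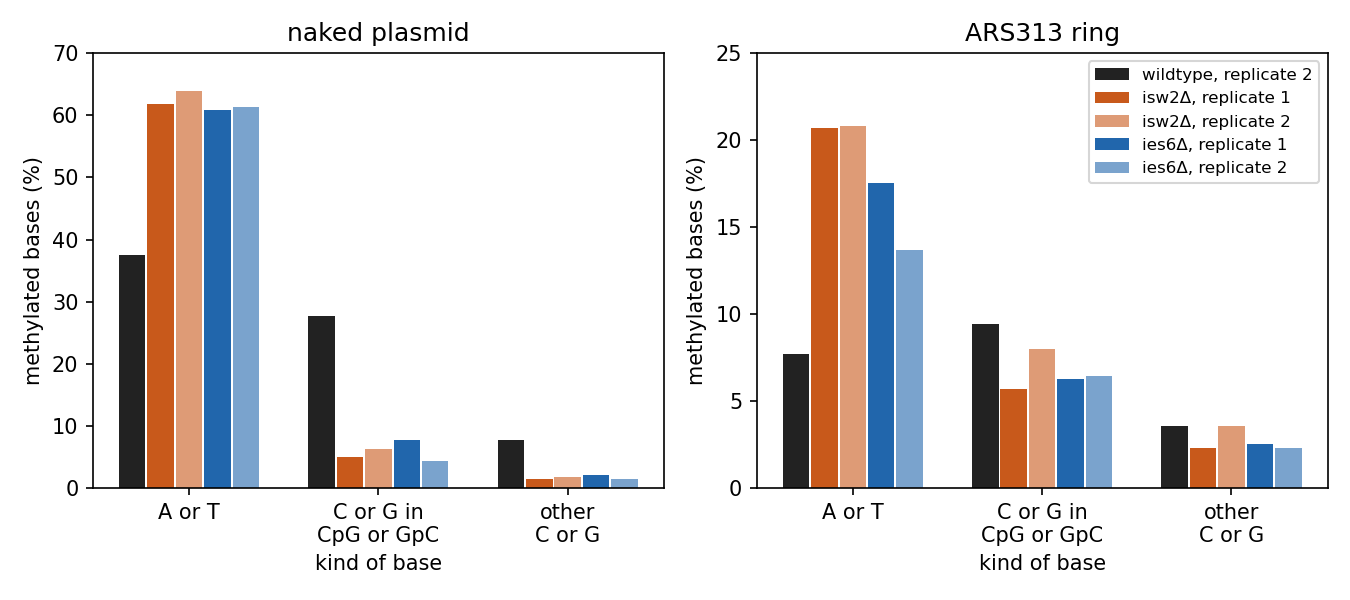
Percentage of methylated calls at A or T bases, at C or G bases in CpG or GpC and at other C or G bases (x axis), for the naked plasmid (left) and the placed stretches of the ARS313 ring (right), with a bar per library. On the naked plasmid, wildtype is lowest at A or T bases (37.6%) and highest at CpG or GpC (27.8%).

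In wildtype, the + side of ARS313 had 2 peaks and the NFR was the lower one. The 30-bp running mean reached 2.16 in the linker, with its peak at column 224, and 2.06 in the NFR, at column 602. Between them lay the middle stretch (columns 241 to 360, level 0.868) and the inner stretch (361 to 480, 0.737), both below the array, with the lowest running mean of 0.480 at column 389. The outer stretch (61 to 180) had a level of 1.14 and a minimum of 0.738 at column 158. The first 60 columns, which hold the inserted cassette and the end of the linearised ring, had the highest level, 3.19. In the study's naming the nucleosome next to the NFR on this side is the +1 nucleosome. Positions of nucleosomes were not called here, and the low stretches are described as such.

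**Figure D2:**
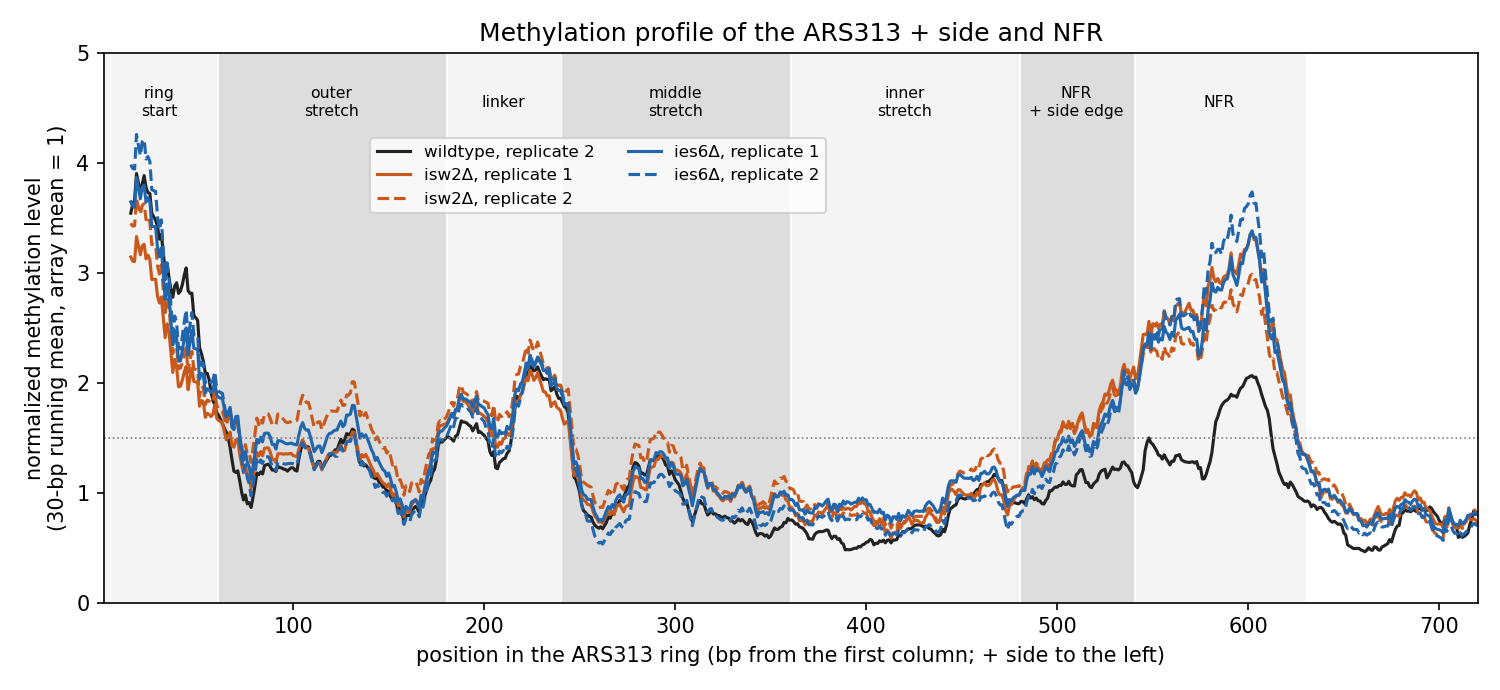
Normalized methylation level (30-bp running mean, y axis) along the ARS313 ring (x axis, bp from the first column, + side to the left), a line per library, with the regions as shaded bands and the level of 1.5 as a dotted line. Mutant libraries reach 2.99 to 3.74 at column 602, wildtype 2.06, while the linker peaks of all 5 libraries lie between 2.11 and 2.39.

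Relative to the array, the NFR was more methylated in both mutants. Over columns 541 to 630, borders read by eye from the study's plots of these data, the level was 1.44 in wildtype. The tests do not cover this choice of borders. It was 2.61 and 2.33 in the isw2Δ libraries (replicates 1 and 2, in this order throughout) and 2.51 and 2.69 in the ies6Δ libraries. All 4 mutant libraries were above wildtype, and the replicates of a mutant differed by less than their distance from it. On the log2 scale isw2Δ was higher by 0.78 (standard error 0.116, adjusted p = 4.44e-08) and ies6Δ by 0.85 (adjusted p = 1.89e-09), as fitted with limma over 53 regions of the 4 rings. At an adjusted p below 0.05, 62.3% of these regions were called in isw2Δ (58.5% as higher, 3.77% as lower) and 45.3% in ies6Δ (41.5% as higher, 3.77% as lower), so that a call alone does not set the NFR apart. Wildtype is 1 library, the spread comes from the mutant pairs alone, and exact permutation of 2 libraries and 1 gives no p below 0.333. The small p-values rest on a spread that limma pooled over all 53 regions. These regions come from the same 5 libraries, and some overlap. The ARS as placed from the study's plots (columns 511 to 600), which overlaps the NFR and its edge, was at 1.42 in wildtype, 2.44 and 2.25 in the isw2Δ and 2.32 and 2.45 in the ies6Δ libraries, with limma changes of 0.72 (adjusted p = 1.65e-07) and 0.74 (adjusted p = 9.56e-08).

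The rise covered the whole NFR, and the peak of the 30-bp running mean over both strands lay at column 602 in every library. On forward reads it lay at column 600 in wildtype and 595 in the mutant libraries, and on reverse reads at 548 in all. With a 50-bp running mean it lay at 583 in wildtype and at 581 or 589 in the mutant libraries. Among the 21 windows, the largest changes were those of windows 19, 21 and 20 in either mutant. Window 19 (541 to 570) went from 1.31 to 2.36 ± 0.213 (SD, n = 2) in isw2Δ and 2.44 ± 0.0690 in ies6Δ. Window 21 (601 to 630), at the far side of the peak, went from 1.26 to 2.24 ± 0.212 and 2.34 ± 0.0652, with limma changes of 0.82 (adjusted p = 2.00e-06, over 152 windows) and 0.89 (adjusted p = 2.84e-07) on the log2 scale. Window 20 (571 to 600), the highest in wildtype at 1.75, rose least of the 3 on the log2 scale, to 2.80 ± 0.162 and 3.03 ± 0.261, by 0.68 (adjusted p = 8.18e-05) and 0.79 (adjusted p = 6.12e-06). In total 10 of the 21 windows were called higher in isw2Δ and 7 in ies6Δ, or 47.6 and 33.3%, against 46.1 and 30.9% of all 152 windows. In either direction 50.7% of all windows were called in isw2Δ and 34.9% in ies6Δ (3.95% lower in ies6Δ). The share of changed windows was therefore close to that of all windows. All 7 windows called in ies6Δ were among those called in isw2Δ. The contrasts share the wildtype library, which by itself makes such an overlap likely, and the overlap over all 152 windows was not counted.

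The most methylated columns are given as a description on unscaled data. They were picked by their mean over the 5 libraries, 4 of them mutant, and so support no difference from wildtype. At column 596, the first in the NFR, the base was methylated in 24.4% of 492 wildtype reverse reads (95% Wilson interval 20.8 to 28.4). It was methylated in 69.4 and 62.4% of 780 reads in isw2Δ and in 65.1 and 58.2% in ies6Δ. At the forward column 594 it was 19.1% in wildtype, 70.9 and 59.7% in the isw2Δ and 62.1 and 61.7% in the ies6Δ libraries. These intervals cover counting error only, and reads are not replicates of a strain. The most methylated linker column, 230, was methylated in 42.2% of wildtype reads and in 62.8 and 66.7% of isw2Δ and 57.9 and 53.7% of ies6Δ reads.

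How far the NFR stood above wildtype depended on the scale. Divided by the A or T bases of the naked plasmid, the NFR was at 0.266 in wildtype, 0.517 and 0.431 in the isw2Δ and 0.422 and 0.397 in the ies6Δ libraries, a log2 change of 0.83 that passed (adjusted p = 0.00722 from limma) and of 0.62 that did not (adjusted p = 0.100). Divided by the linker of the same library, it was at 0.771 in wildtype and at 1.36, 1.11, 1.24 and 1.38 in the mutant libraries. In the wildtype library the linker was thus above the NFR and in each mutant library below it, and the NFR changes of 0.67 and 0.76 on this scale passed (adjusted p = 4.60e-05 and 2.53e-06 from limma). The linker itself differed from wildtype by kind of base. Its placed A or T bases were at 1.65 in wildtype and 1.99 to 2.31 in the mutants, and those in CpG or GpC at 1.88 against 0.843 to 1.03. Divided by the A or T bases of the placed stretches of the ring itself, the changes were 0.14 and 0.32 and neither passed (adjusted p = 0.439 in isw2Δ). Divided by the mean of the minus side of the ring, a scale chosen earlier, the change of 0.44 in isw2Δ did not pass either (adjusted p = 0.102). On the scale of the ring A or T bases 9 of the 21 windows were lower in isw2Δ and 10 in ies6Δ and 0 were higher. The scales by A or T bases and by the linker were added after the data had been seen.

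**Figure D3:**
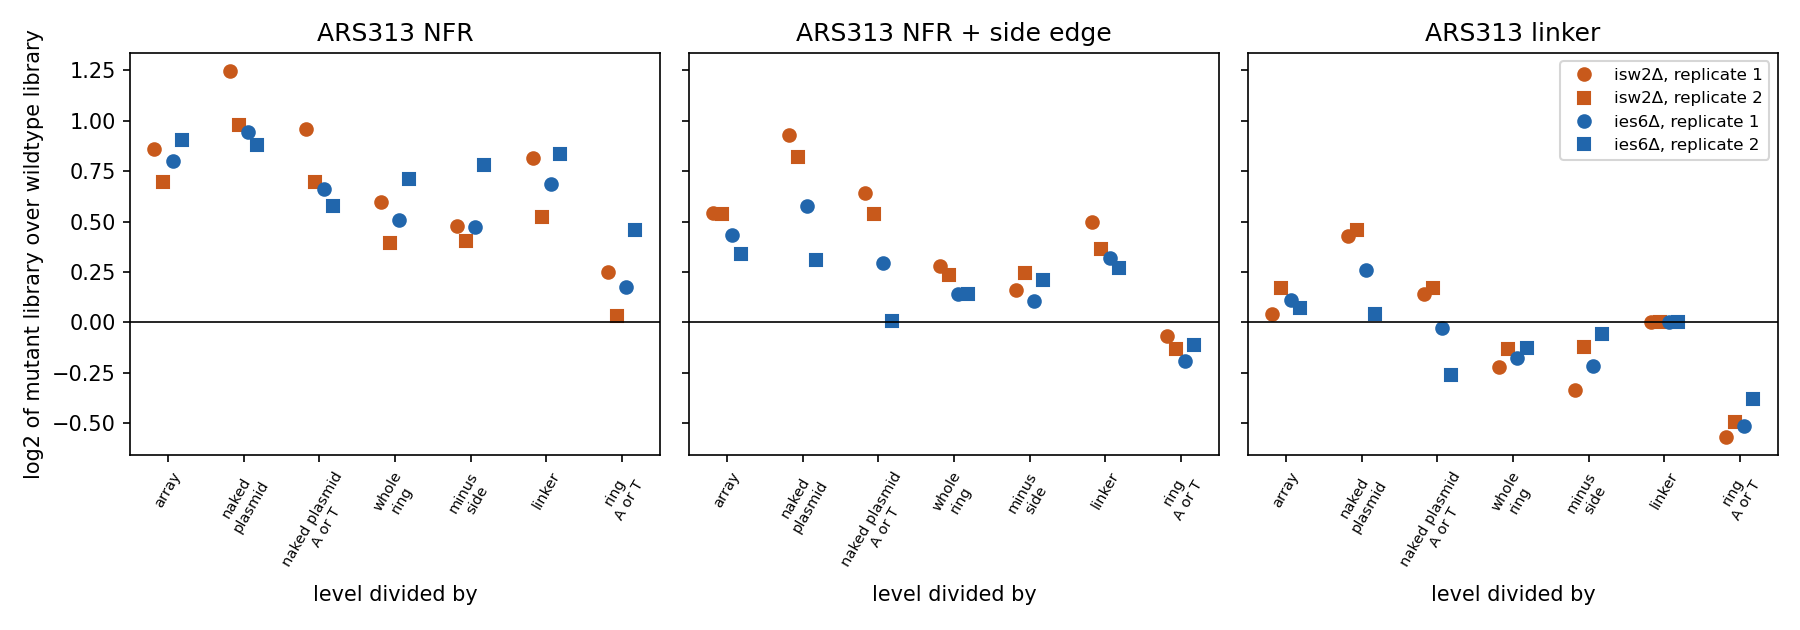
Log2 ratio of each mutant library to the wildtype library (y axis) for the NFR, its + side edge and the linker, with the level divided by the array, the naked plasmid, its A or T bases, the whole ring, the minus side of the ring, the linker or the A or T bases of placed ring stretches (x axis). All NFR points lie above 0, while the edge and linker points cross 0 on some scales.

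At a fixed level of the profile, the opening reached farther toward the + side in the mutants. On the NFR + side edge (columns 481 to 540) the level was 1.08 in wildtype, 1.57 in both isw2Δ libraries and 1.46 and 1.37 in ies6Δ. Both changes passed in limma, with 0.54 for isw2Δ (adjusted p = 6.92e-05) and 0.39 for ies6Δ (adjusted p = 0.00397) on the log2 scale. Within the edge, window 18 (511 to 540) was called in both mutants, by 0.62 and 0.47, and window 17 (481 to 510), by 0.42, in isw2Δ (adjusted p = 0.0128). The stretch around the peak with a running mean of at least 1.5 began at column 582 in wildtype, at 501 in both isw2Δ libraries and at 522 in both ies6Δ libraries. It was 31 bp wide in wildtype, 125 bp in each isw2Δ library and 104 and 103 bp in the ies6Δ libraries. The order of the mutants held for this level and scale. With the minus side mean the opening began at columns 533 and 527 in isw2Δ and at 534 and 527 in ies6Δ, and on forward reads at 552 in both isw2Δ libraries and at 552 and 550 in ies6Δ. Width was not tested.

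This width is one of a profile cut at a fixed level. Cut midway up the peak of the library itself, the opening was 127 bp wide in wildtype, 114 ± 16.3 bp (SD, n = 2) in isw2Δ and 93.0 ± 8.49 bp in ies6Δ, and began at column 498 in wildtype and at 512 ± 14.8 and 530 ± 6.36 in the mutants. Relative to its own peak, the mutant opening was not wider than that of wildtype. Columns of the edge picked in the same way are given before any scaling. Column 534 was methylated in 15.6% of wildtype, 55.4 and 49.4% of isw2Δ and 40.8 and 40.9% of ies6Δ forward reads. At column 500, farther from the NFR, it was 14.4% in wildtype, 44.7 and 39.9% in the isw2Δ and 34.2 and 23.6% in the ies6Δ libraries, and these percentages are not scaled to the array, whose mean was also higher in isw2Δ. The edge fell short of the threshold in ies6Δ with the naked plasmid (0.45, adjusted p = 0.105 from limma), and in both mutants when divided by the whole ring (0.26 and 0.14, adjusted p = 0.0735 and 0.289) or the minus side (0.20 and 0.16) and on forward reads (0.36 and 0.27). With A or T bases of the ring it turned to -0.10 and -0.15.

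The low stretches changed by less than the NFR as a whole, but some of their windows were called. Windows 3 (61 to 90), 13 (361 to 390) and 14 (391 to 420) were called higher in both mutants, by 0.45, 0.42 and 0.42 in isw2Δ and by 0.42, 0.38 and 0.47 in ies6Δ, and windows 11 and 12 of the middle stretch in isw2Δ, by 0.43 and 0.49. Window 14 in ies6Δ (limma, adjusted p = 0.00754) thus changed by as much as edge window 18. The inner stretch, next to the edge, was at 0.737 in wildtype, 0.858 and 0.946 in the isw2Δ and 0.946 and 0.780 in the ies6Δ libraries. All mutant libraries were above wildtype, by a log2 change of 0.29 that passed in isw2Δ (limma, adjusted p = 0.0263) and one of 0.22 that did not in ies6Δ (adjusted p = 0.106). The middle stretch was at 0.868 in wildtype, 0.993 and 1.12 in the isw2Δ and 1.01 and 0.828 in the ies6Δ libraries. It changed by 0.28 in isw2Δ (adjusted p = 0.0335), and the ies6Δ libraries lay on either side of wildtype (0.08, adjusted p = 0.617). The outer stretch was at 1.14 in wildtype, 1.24 and 1.52 in the isw2Δ and 1.35 and 1.19 in the ies6Δ libraries, with changes of 0.27 (adjusted p = 0.0351) and 0.16 (adjusted p = 0.255). The 3 isw2Δ calls are about as large as the median change of all 152 windows (0.31), and without isw2Δ replicate 2 none of the 3 passed (0.12 to 0.22, adjusted p = 0.245 to 0.529). The minimum of the outer stretch lay at column 158 in every library, and that of the inner stretch at column 389 in wildtype and 413 in all 4 mutant libraries.

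The linker between the outer and middle stretches (columns 181 to 240), printed above as 2 abutting stretches, had the highest level of the flank between the ring start and the NFR, and its level was close to equal in all libraries. It was at 1.86 in wildtype, 1.92 and 2.10 in the isw2Δ and 2.02 and 1.96 in the ies6Δ libraries. Neither change passed the threshold (0.11 and 0.09, standard error 0.116, adjusted p = 0.414 and 0.556 from limma). The peak lay at column 224 in 4 libraries and at 228 in ies6Δ replicate 2, with a dip at column 207 in each. The dip had a running mean of 1.22 in wildtype and of 1.32 to 1.64 in the mutant libraries. At the 32 A or T bases printed for the linker, however, the level was 1.65 in wildtype and 1.99 to 2.31 in the mutant libraries, and at the 4 C or G bases in CpG or GpC it was 1.88 in wildtype and 0.843 to 1.03 in the mutants. At the placed linker bases, A or T and CpG or GpC thus changed in opposite directions. The other linker columns had no base letters placed, and the part of each kind of base in the level of the whole linker was not tested. Divided by the naked plasmid, the linker rose in isw2Δ by 0.44 (adjusted p = 0.0252).

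At the ring start (columns 1 to 60), the level was 3.19 in wildtype, 2.54 and 2.77 in the isw2Δ and 2.95 and 3.19 in the ies6Δ libraries. It fell by 0.27 on the log2 scale in isw2Δ (limma, adjusted p = 0.0388) and the change of -0.06 in ies6Δ did not pass (adjusted p = 0.718). Window 2 (31 to 60) was the only one of the 21 called lower on the array scale, and only in isw2Δ, from 2.84 to 2.02 ± 0.110 (SD, n = 2; log2 change -0.49, adjusted p = 0.00369), against 4.61% of all windows called lower in isw2Δ. Without normalization the ring start rose in both mutants, by 0.52 (adjusted p = 0.00232) and 0.41 (adjusted p = 0.0169).

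**Figure D4:**
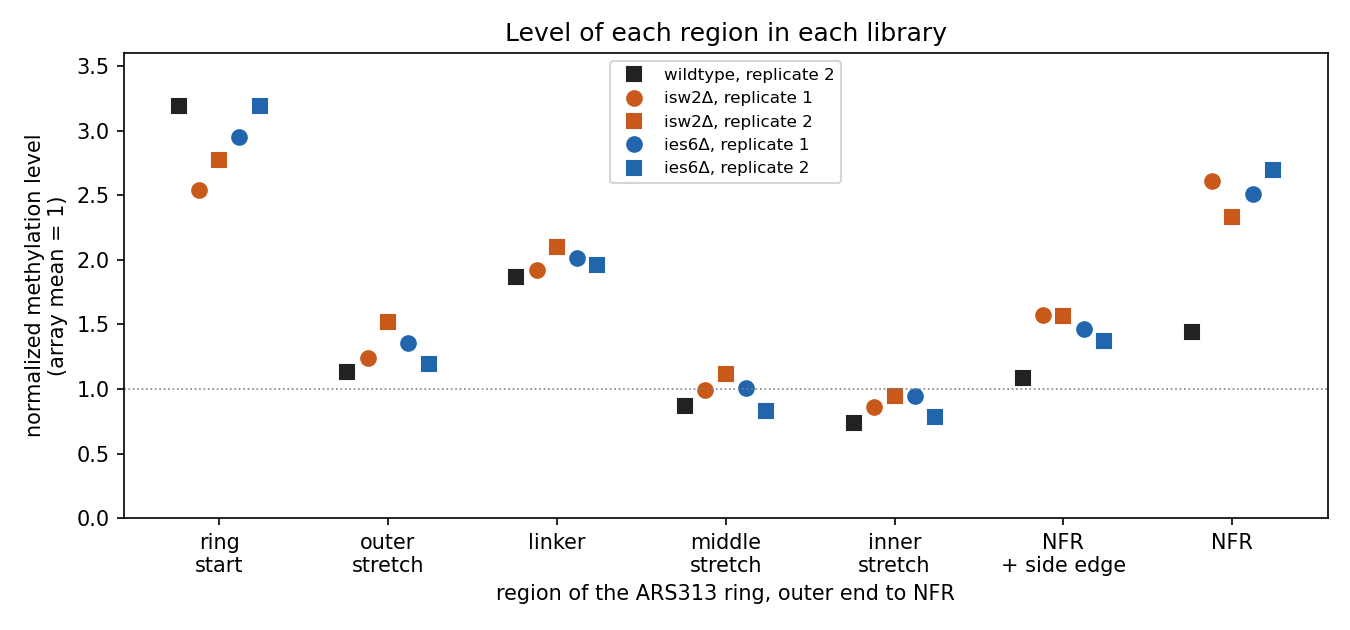
Normalized methylation level (y axis, array mean = 1) of each region from the outer end to the NFR (x axis), a point per library. Wildtype is below all mutant libraries in the NFR (1.44 against 2.33 to 2.69) and on its + side edge, and by smaller amounts or within their range elsewhere.

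The mutants were compared with each other directly, in 2 libraries each. None of the 21 windows was called by limma (0 at an unadjusted p under 0.05), against 5.26% of all windows called (3.29% higher and 1.97% lower in isw2Δ than in ies6Δ) and 5.66% of regions (3.77% higher and 1.89% lower). The NFR differed by -0.08 (standard error 0.0943, adjusted p = 0.808), isw2Δ minus ies6Δ, and the edge by 0.15 (adjusted p = 0.391). A difference of the edge was therefore not shown on the array scale. Without normalization it was 0.48 (adjusted p = 0.00532), and divided by the A or T bases of the naked plasmid 0.44 (adjusted p = 0.0393), isw2Δ being higher.

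Within the borders used, the NFR of ARS313 rose more than the NFRs of the other 3 origins. The change was computed as the log2 ratio of the ARS313 NFR to another NFR within each library, where the spike-in cancels. Against the NFR of ARS305 this ratio was -1.14 in wildtype, -0.50 and -0.76 in the isw2Δ and -0.60 and -0.63 in the ies6Δ libraries. Against ARS315 it was -0.72 in wildtype, 0.12 and -0.12 in the isw2Δ and 0.04 and -0.01 in the ies6Δ libraries, so that the ARS313 NFR, clearly the lower one in wildtype, was level with that of ARS315 in the mutants. Against the other late-inefficient origin, ARS316, it was -0.47 in wildtype and between -0.10 and 0.12 in the mutant libraries. The ARS316 values of the ies6Δ libraries rest on only 176 and 575 reads. In isw2Δ the ARS313 change exceeded that of ARS305, ARS315 and ARS316 by 0.51, 0.72 and 0.44 (adjusted p = 0.0122, 0.00620 and 0.0184 from limma, over 6 tests), and in ies6Δ by 0.52, 0.73 and 0.59 (adjusted p = 0.0122, 0.00620 and 0.0109). The mutant libraries lay above wildtype in each of the 6. The same wildtype library and the same ARS313 values enter all 6 tests, and the bases of the NFRs differ. Of the NFR columns 81.1% at ARS305, 72.5% at ARS315 and 88.3% at ARS316 were methylated in at least 5% of molecules, against 87.8% at ARS313. The part of this in the differences was not tested. The borders, read by eye, were not varied in this test. Just outside them, window 21 of ARS305 was at 1.29 in wildtype and 1.98 to 2.30 in the mutant libraries. Window 25 of ARS316 was at 1.40 and 1.75 to 2.22, and window 21 of ARS315 at 1.29 and 1.22 to 1.48. At ARS313, edge window 18 was at 1.21 and 1.64 to 1.90. Whether the 6 passed turned on which mutant library was left out, since the standard error, shared by the 3 origins, moved with it. The excess itself stayed at 0.37 to 0.83 in isw2Δ and 0.51 to 0.76 in ies6Δ.

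More single molecules had an open NFR in the mutants. A molecule was called open in a region when at least 2 times the array mean of its library was methylated among the bases called on its strand. The NFR was open in 25.8% of 985 wildtype molecules (95% Wilson interval 23.2 to 28.6), in 64.4% (61.9 to 66.7) and 54.6% (52.1 to 57.1) of the 1560 of each isw2Δ library, and in 59.4% (57.0 to 61.8) and 59.6% (57.1 to 62.0) of those of the ies6Δ libraries. Forward reads were open more often than reverse reads in each library, 27.2 and 24.4% in wildtype and 73.1 and 55.6% in isw2Δ replicate 1. The edge was open in 17.2% of wildtype molecules, 31.9 and 30.4% in isw2Δ and 26.9 and 26.2% in ies6Δ. By this rule the shares of the inner stretch overlapped, at 12.3% in wildtype (10.4 to 14.5), 11.3 and 13.8% in the isw2Δ and 14.5 and 9.29% in the ies6Δ libraries. Other rules moved them in either direction, from 6.29% in wildtype to 17.8 ± 1.45% (SD, n = 2) in isw2Δ and 11.1 ± 4.76% in ies6Δ at a fixed fraction of 0.2, and from 6.19% to 2.95 ± 0.453% and 4.07 ± 1.13% at 3 times the array mean. The linker was open in 34.5% of wildtype molecules and in 39.7 to 47.4% in the mutant libraries. A wildtype molecule was hence more often open in the linker than in the NFR, and a mutant molecule less often.

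The NFR was not open in every mutant molecule. Among forward reads, the median molecule of wildtype had 4.76% of its called NFR bases methylated, with quartiles of 2.38 and 14.3%. In isw2Δ replicate 1 the median was 42.9% (quartiles 23.8 and 54.8%), in replicate 2 33.3% (lower quartile 9.52%). In ies6Δ the medians were 31.0 and 33.3%, with a lower quartile of 14.3% in both. Molecules without any methylated base in the NFR were 20.3% of wildtype forward reads and 4.36 to 6.54% of those of the mutants. At least 50% of the bases were methylated in 1.83% of wildtype forward reads and in 18.2 to 37.2% of those of the mutants. Reverse reads differed by less, with medians of 6.25% in wildtype and 16.7 to 25% in the mutants, and 0.407 and 1.67 to 6.54% of reads with at least 50% of the bases methylated. The forward lower quartiles of 3 mutant libraries were at or below the upper quartile of wildtype, so that some mutant molecules were as little methylated as most wildtype molecules. These fractions are not scaled, and the array mean was 6.96% in wildtype, 12.2 and 11.8% in the isw2Δ and 10.2 and 9.02% in the ies6Δ libraries.

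**Figure D5:**
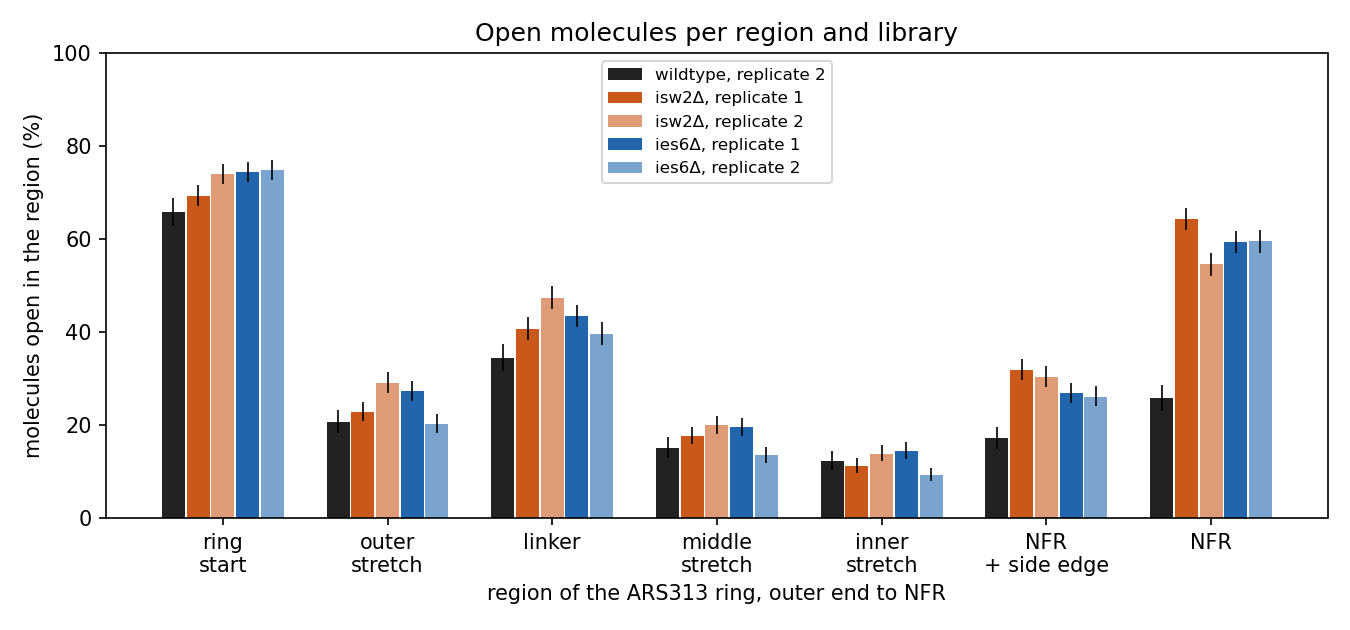
Percentage of molecules open in each region (y axis), with a bar per library and 95% Wilson intervals as error bars, from the outer end to the NFR (x axis). The NFR is open in 25.8% of wildtype and 54.6 to 64.4% of mutant molecules, and the inner stretch in 9.29 to 14.5% in all libraries.

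Openness of the NFR went together with that of its neighbours on the same molecule. In wildtype, the edge was open in 42.5% of the 254 molecules with an open NFR and in 8.34% of the 731 with a closed one. The same shares were 31.1 and 5.75% for the inner stretch, 29.1 and 10.1% for the middle stretch and 44.1 and 31.2% for the linker. The difference was thus 34.2 percentage points at the edge and 12.9 at the linker. In the mutants the edge was open in 42.0 and 45.7% of NFR-open molecules in isw2Δ and in 35.6 and 34.7% in ies6Δ, while NFR-open molecules were 852 to 1004 per library. The inner stretch was open in fewer of the NFR-open molecules of the mutants, 15.4 and 20.2% in isw2Δ and 18.8 and 12.4% in ies6Δ, than of wildtype. With a closed NFR it was open in 3.78 to 8.21% in the mutant libraries. These differences between groups were not tested.

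Across molecules, Spearman's rho between the methylated fractions of NFR and edge was 0.42 on the 493 forward and 0.45 on the 492 reverse reads of wildtype, and between 0.24 and 0.62 over both strands of the mutant libraries, with 780 reads each. For NFR and linker it was 0.17 and 0.10 in wildtype and 0.13 to 0.37 in the mutants. Both fractions come from 1 molecule and share its methylation. With the mean of the minus side of the same molecule held constant by partial rank correlation, rho of NFR and edge was 0.37 and 0.39 in wildtype and 0.18 to 0.50 in the mutants, and that of NFR and linker 0.11 and 0.02 in wildtype and 0.08 to 0.22 in the mutants. In wildtype the edge thus went with the NFR more closely than the linker did, on both strands and on either measure, but not more closely than the inner stretch on forward reads, for which rho was 0.44 and partial rho 0.39 in wildtype. On forward reads rho was higher for the inner stretch than for the edge in 4 of the 5 libraries.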

How the data were processed

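The authors called modified bases of Nanopore reads with Megalodon, applied score thresholds set on unmethylated and fully methylated plasmid, and deposited 60 tables, split by locus, library and strand, of fractions per base and read that are 0 or 1 (genome build R64 in the submitters' notes). These fractions are not normalized, and 3 of the deposited tables hold the same fractions as space-separated text. The score thresholds could not be varied. The 60 tables held 43459 reads, and 1 incomplete line was left out.

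Per-column means over forward and reverse reads were added, divided by the nucleosomal array mean of the library and averaged over 30-bp windows and regions. Region borders were read by eye from the study's plots of these data, and the members, regions and windows were chosen with earlier results of these data known. Every ARS313 region is reported. Named windows are, for each mutant, the 3 of windows 1 to 21 with the largest absolute change among those past the threshold and changed alike in both libraries, and any called lower. Log2 levels were tested in limma, with the 5 libraries in 1 fit (residual degrees of freedom: 2), and p-values were adjusted by Benjamini-Hochberg over all 152 windows or 53 regions, at an adjusted p of 0.05. Replicates are separate libraries of a group, and the spread may be partly technical.

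The NFR peak was searched on the 30-bp running mean over windows 17 to 21 widened by 2 windows on each side. For width on other scales, profiles were put on the wildtype array scale, so that the wildtype width is the same. Open shares have 95% Wilson intervals, which cover counting error only. Oligonucleotide parts of 18 bases or more were taken from the study's oligonucleotide list and placed only where every base matched the called strand. Of 24 oligonucleotides for ARS313, 11 parts were placed outside the ring start, 6 of them on the + side. Chromosomal coordinates were not used here.

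The limma fit was tested on simulated data. In 20 sets of the 152 windows with 15 windows changed by each size, it called 44.0% of those changed by 0.4 and 98.3% of those changed by 0.8 on the log2 scale in isw2Δ against wildtype, and 4.69% of its calls were unchanged windows. The simulated noise was independent between windows and libraries, without any shift of the wildtype library by kind of base. These rates therefore do not cover the difference in methylated bases seen in the real wildtype library. Alternatives covered other scales, each strand, at most 200 reads per strand, sites of at least 5%, windows of 20 and 50 bp, borders moved by 15 bp, log odds, the replicate number as a block, limma with a trend and robust variance, leaving out each library of a mutant, and other definitions of width and openness. Tests used limma 3.58.1 in R 4.3.3. Other steps used SciPy 1.17.1, NumPy 2.4.6 and Python 3.11.15, and figures Matplotlib 3.10.9.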

Additional observations from a re-analysis of the deposited data

Results flagged for a closer look

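Within the borders used, which were not varied, the change of the ARS313 NFR differed from that of the other NFRs in a test of the difference itself. In isw2Δ it exceeded the change at ARS305 by 0.51, at ARS315 by 0.72 and at ARS316 by 0.44 on the log2 scale, and in ies6Δ by 0.52, 0.73 and 0.59. All 6 passed the adjusted threshold in limma and rest on the same wildtype library, but 3 of the 6 just missed it with the replicate number as a block. Whether they passed also turned on which mutant library was left out, while the excess stayed at 0.37 to 0.83 in isw2Δ and 0.51 to 0.76 in ies6Δ.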

How the results depend on the processing

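Scale moved most results. Of the 21 windows, 11 were called in isw2Δ and 7 in ies6Δ. In isw2Δ the count was 20 without normalization, 3 with the whole ring mean (2 higher and 1 lower), 1 with the minus side mean (lower) and 6 on forward reads. In ies6Δ it was 14 without normalization, 0 with the naked plasmid, 5 with the whole ring mean (3 higher and 2 lower), 0 with the minus side mean and 4 on forward reads. These 0 counts are from limma, with 5 windows at an unadjusted p under 0.05 in either case. Of 12 windows of 50 bp, 4 were called in isw2Δ and 3 in ies6Δ, and of 31 windows of 20 bp 13 and 7. Among scales added after seeing the data, A or T bases of the naked plasmid gave 0 in either mutant, the linker 5 and 3, and sites of at least 5% over A or T bases of the naked plasmid 3 and 0. Between the mutants, reverse reads gave 1. The cause was not tested.

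The NFR change missed the threshold with the minus side mean in isw2Δ (0.44), with A or T bases of the ring (0.14 in isw2Δ and 0.32 in ies6Δ), and in ies6Δ with A or T bases of the naked plasmid (0.62) and with sites of at least 5% over them (0.67). The edge in isw2Δ missed it with the whole ring (0.26), the minus side (0.20) and forward reads (0.36), and turned to -0.10 with A or T bases of the ring. In ies6Δ the edge missed it with the naked plasmid (0.45), the whole ring (0.14), the minus side (0.16), forward reads (0.27), A or T bases of the naked plasmid (0.15), sites over them (0.26), the linker (0.30) and borders 15 bp lower (0.15), and turned to -0.15 with A or T bases of the ring. The edge difference between mutants passed without normalization (0.48) and with A or T bases of the naked plasmid (0.44). The linker passed with the naked plasmid in isw2Δ (0.44), without normalization (0.90 in isw2Δ, 0.56 in ies6Δ and 0.34 between them), and turned to -0.53 and -0.45 with A or T bases of the ring. Other reversals were those of the ring start with the naked plasmid (0.070 in isw2Δ) and without normalization (0.52 and 0.41), of the isw2Δ changes with the whole ring (outer stretch -0.0091, middle stretch -0.0039) and the minus side (outer -0.062, middle -0.057, inner -0.045), with A or T bases of the ring (outer -0.36 and -0.38, middle -0.36 and -0.46, inner -0.35 in isw2Δ), and of the difference between mutants over columns 511 to 600 without normalization (0.30).

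The opening was wider than in wildtype by 94.0 bp in isw2Δ and 72.5 bp in ies6Δ. The difference was 116.5 and 84.5 bp with the naked plasmid, 161.5 and 113.5 bp without normalization, 64 and 58 bp with the whole ring, 59.5 and 60.5 bp with the minus side, 37.0 and 38.0 bp on forward and 62 and 60 bp on reverse reads, 103 and 96.5 bp at a lower fixed level, and 73.0 and 69.5 bp at a level of 2. In isw2Δ it was 85.5 bp with at most 200 reads, 78.0 bp with sites of at least 5% and 77.0 bp with a 50-bp running mean, and in ies6Δ 62.0 bp with A or T bases of the naked plasmid. At mid-height it turned to -13.5 and -34.0 bp, with edges shifted by 13.5 and 31.5 columns toward the peak. The rise in molecules open in the NFR was 21.1 and 24.3 percentage points at 3 times the array, 50.8 and 40.9 at a fixed fraction of 0.2, 41.4 and 38.1 at 0.5 times the naked plasmid, and 38.2 in ies6Δ at 1.5 times the array.

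With each mutant library left out, the NFR changes were 0.70 to 0.86 in isw2Δ and 0.80 to 0.91 in ies6Δ, the calls 7 to 12 and 4 to 9, and the excess of the ARS313 NFR over ARS305, ARS315 and ARS316 was 0.38 to 0.64, 0.60 to 0.83 and 0.37 to 0.52 in isw2Δ and 0.51 to 0.54, 0.71 to 0.76 and 0.58 to 0.59 in ies6Δ. Groups share replicate numbers, but deviations of same-numbered libraries correlated only by 0.11 over 152 windows and by -0.48 over the 21, so the numbers were not used as a pairing. With the replicate number as a block, 8 windows were called in isw2Δ and 4 in ies6Δ, the NFR and edge calls passed, and 3 of the 6 differences from other NFRs just missed the threshold (ARS305 0.44 in isw2Δ and 0.45 in ies6Δ, ARS316 0.40 in isw2Δ). Depth limited little at ARS313, since with at most 200 reads per strand the NFR and edge kept their calls. The differences from other NFRs were not rerun in this way, and ARS316 had only 176 and 575 reads in ies6Δ.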

Other observations

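Forward and reverse columns of the NFR did not rise alike. At the 42 forward columns wildtype had a level of 1.54, the isw2Δ libraries 3.18 and 2.72, and the ies6Δ libraries 2.99 and 3.42. At the 48 reverse columns wildtype had 1.35, the isw2Δ libraries 2.10 and 1.99, and the ies6Δ libraries 2.09 and 2.06. At the 31 forward and 29 reverse columns of the linker, wildtype had 2.11 and 1.61, and the mutant libraries 2.30 to 2.46 and 1.49 to 1.71. The difference between strands was not tested.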
